A study of Mus musculus with 3 samples.

Results

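Coding exon sites were TRα1 binding sites whose summit, the base with the highest ChIP signal, lay in protein-coding sequence and more than 1 kb from every annotated start of a protein-coding transcript. They were taken from the 1 peak list of the series with the GENCODE annotation of GRCm38, and no measured signal entered the choice. The rule held for 299 of 23988 sites. The list came from TRα1 ChIP-seq of striatum, with 2 ChIP libraries and 1 input library. All libraries were of male C57BL/6J mice aged 8 weeks, euthyroid and without treatment, whose GABAergic neurons made TRα1 with a GS tag. The receptor was therefore a tagged protein made from a floxed construct, and no library without the tag was analysed here. Chromatin had been fixed with disuccinimidyl glutarate and formaldehyde, so that DNA held through a partner protein could also be recovered. The list gave no value for a single library, and replicates could not be compared. All intervals are 95% Wilson intervals over sites and, like the p-values, cover the counting of sites and not the variation between animals. Sequencing depth was not analysed here.

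TRα1, the product of Thra, is a nuclear receptor that binds DNA with or without thyroid hormone (T3), mostly as a heterodimer with RXR. Its classical response element is the DR4, 2 copies of the half-site AGGTCA in the same direction, 4 bases apart. Without T3 the receptor holds corepressor complexes, and with T3 it exchanges them for coactivators. Exons differ from the sequence around them in that their bases also have to encode amino acids, and they hold nucleosomes well. A binding site within an exon can act as an enhancer, of the same gene or of another one.

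A DR4 was called where at most 2 of the 12 half-site bases of a match differed from the repeat, on either strand, within 100 bp of the summit. The closest matches are printed first because they show how an element of this kind lies inside coding sequence. They are the 8 strongest coding exon sites with at most 1 mismatch, each 5-prime to 3-prime along the strand of the match in GRCm38, with the half-sites in capitals and 12 bases on either side.
Rad9a (chr19:4196233-4196272, plus strand): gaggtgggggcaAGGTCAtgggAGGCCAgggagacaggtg
Ruvbl1 (chr6:88483060-88483099, minus strand): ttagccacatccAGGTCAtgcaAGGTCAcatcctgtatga
Tns1 (chr1:73916872-73916911, plus strand): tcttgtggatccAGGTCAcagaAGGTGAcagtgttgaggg
Irf8 (chr8:120753710-120753749, plus strand): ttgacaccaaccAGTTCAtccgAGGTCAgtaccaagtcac
Ryr1 (chr7:29073054-29073093, plus strand): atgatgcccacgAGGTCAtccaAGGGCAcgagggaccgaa
Gstm3 (chr3:107967802-107967841, minus strand): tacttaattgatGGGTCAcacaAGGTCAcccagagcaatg
Edrf1 (chr7:133641396-133641435, plus strand): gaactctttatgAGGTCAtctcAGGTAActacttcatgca
Cry2 (chr2:92416294-92416333, plus strand): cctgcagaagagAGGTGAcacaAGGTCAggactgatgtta
In Ruvbl1 both half-sites were complete. The matches of Rad9a, Ruvbl1, Tns1, Ryr1 and Gstm3 lay wholly in coding bases, whereas those of Irf8, Edrf1 and Cry2 ran past the end of the coding segment or lay beside it.

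The next sequences run from 100 bp before to 100 bp after the summits in Thra, the gene with the most coding exon sites, and in Def6, the gene with the strongest one. Coding bases are in capitals, and both genes lie on the plus strand of GRCm38.
Thra exon 5 (chr11:98760840-98761040): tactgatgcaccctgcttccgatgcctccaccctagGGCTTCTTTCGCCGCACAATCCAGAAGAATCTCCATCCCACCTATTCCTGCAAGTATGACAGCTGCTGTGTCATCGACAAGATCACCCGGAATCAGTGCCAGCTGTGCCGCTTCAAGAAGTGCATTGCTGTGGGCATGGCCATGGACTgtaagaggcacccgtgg
Thra exon 6 (chr11:98761740-98761940): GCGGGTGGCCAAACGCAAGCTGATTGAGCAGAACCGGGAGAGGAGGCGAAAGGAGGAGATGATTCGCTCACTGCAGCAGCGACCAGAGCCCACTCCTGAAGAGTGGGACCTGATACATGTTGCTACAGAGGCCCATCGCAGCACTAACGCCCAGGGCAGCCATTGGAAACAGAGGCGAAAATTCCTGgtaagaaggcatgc
Thra exon 8 (chr11:98763471-98763671): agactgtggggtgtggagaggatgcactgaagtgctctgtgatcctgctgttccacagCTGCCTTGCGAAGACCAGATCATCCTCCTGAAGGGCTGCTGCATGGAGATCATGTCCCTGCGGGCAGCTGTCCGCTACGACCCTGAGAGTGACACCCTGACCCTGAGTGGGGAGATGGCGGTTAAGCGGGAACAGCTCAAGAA
Thra exon 9 (chr11:98764275-98764475): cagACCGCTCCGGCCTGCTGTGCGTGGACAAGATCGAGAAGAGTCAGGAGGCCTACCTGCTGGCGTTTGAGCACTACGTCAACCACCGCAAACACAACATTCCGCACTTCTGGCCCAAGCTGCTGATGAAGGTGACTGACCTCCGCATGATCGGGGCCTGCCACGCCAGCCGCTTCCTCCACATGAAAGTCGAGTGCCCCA
Def6 exon 9 (chr17:28226183-28226383): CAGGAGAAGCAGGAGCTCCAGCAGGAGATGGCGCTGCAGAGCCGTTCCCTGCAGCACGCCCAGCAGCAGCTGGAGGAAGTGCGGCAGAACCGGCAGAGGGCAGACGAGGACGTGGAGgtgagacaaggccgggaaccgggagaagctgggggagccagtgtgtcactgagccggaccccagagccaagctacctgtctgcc
None of these 5 windows held a DR4 of at most 2 mismatches.

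Counted at more than 1 kb from starts, coding exon sites were few but denser than sites in the rest of the sequence. They made up 1.71% (1.53 to 1.92) of the 17453 sites more than 1 kb from a start, whereas coding bases were 1.00% of the sequenced bases at this distance. This corresponded to 11.7 sites per Mb of coding sequence and 6.80 sites per Mb of other sequence. The bases counted included repeats, and whether reads could be mapped to them was not taken into account. Of the coding exon sites, 152 lay within 5 kb of a start. Beyond 5 kb, 147 remained, beside 7062 sites in introns, 267 in untranslated exons and 6878 in intergenic sequence. Coding bases beyond 5 kb were not counted, so whether the density also differed there was not tested. A further 547 sites had a coding summit but lay within 1 kb of a start and were left out. The members closest to the limit were in Frat1 at 1014 bp, Myh14 at 1018 bp and Chst2 at 1020 bp, and the closest sites left out were in Irf2bpl at 997 bp, Lurap1l at 990 bp and Jun at 986 bp. Starts of other transcripts were not part of the rule, and 17 members lay within 1 kb of the start of a noncoding GENCODE transcript or of a RefSeq transcript.

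The 299 sites lay in 286 genes, or 1.31% of the 21911 protein-coding genes. Of these genes, 276 had 1 coding exon site, 8 had 2, Mn1 had 3 and Thra had 4. Most summits lay late in the gene, at a median of 73.9% of the way from its 5-prime to its 3-prime end, and 87 of 299 lay in the first 50%. The coding exon was internal in 194 sites, the last in 69, the first in 15 and the only one in 21. The rule itself left out coding summits within 1 kb of a start. The position of all coding bases that could qualify was not computed, so these values show no preference within the gene. The distance to the nearest start had a median of 4812 bp and reached 374213 bp. The summit was the defining point, and a site usually ran past its exon: the median site was 404 bp long and the median coding segment 192 bp, and coding bases made up a median of 49.4% of a site. Only 57 sites lay wholly within coding sequence. Segments of 100 to 300 bp held 141 of the summits, at a median of 35.5 bp from the middle of the segment, and 115 of these segments lay wholly within the site. Coding segments of at least 500 bp held 89 sites, or 29.8% (24.9 to 35.2), and 26.9% of the coding bases away from starts.

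Coding exon sites were found on all 19 autosomes. None lay on the X chromosome, and a count of 0 in 299 allows a share of up to 1.00%, taken as 3 counts of the total rather than from a Wilson interval. The X chromosome held 4.0% of the coding sequence away from starts. Of all sites more than 1 kb from a start, X held 1.35%, and of intron sites 1.14%. The upper Wilson limit for a count of 0 in 299 is 1.27%. No difference between these shares was tested. These male mice carry a single X, and its part in the count was not tested.

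In signal strength the coding exon sites were close to other sites. The pileup, the number of ChIP fragments over the summit, was 20 at the median and lay between 14 and 620. The fold enrichment, the pileup over the local background after adding 1 to both, had a median of 7.07 and quartiles of 5.95 and 10.3. The median was 7.28 in the 9105 intron sites, 7.44 in the 494 sites in untranslated exons and 7.07 in the 7555 intergenic sites. The list median of 7.40 was reached by 45.8% (40.3 to 51.5) of coding exon sites, beside 50.2% of all sites. This share was 49.5% in introns, 51.6% in untranslated exons and 48.0% in intergenic sequence, and the adjusted p of the 3 two-sided Fisher's exact tests was 0.326, 0.326 and 0.479. With only the strongest site of each gene and class kept, the median of the sites compared rose to 8.43. It was reached by 37.1% of coding exon sites and 53.3% of intron sites, an odds ratio of 0.515 with an adjusted p of 3.34e-07 by the same exact test. With the list median of 7.40 held, an alternative chosen after seeing the data, the shares were 46.5 and 62.8%. The coding share thus stayed near its value over all sites, while the intron share rose when the 9105 intron sites were reduced to the strongest 3850 and the 299 coding exon sites to 286.

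**Figure D1:**
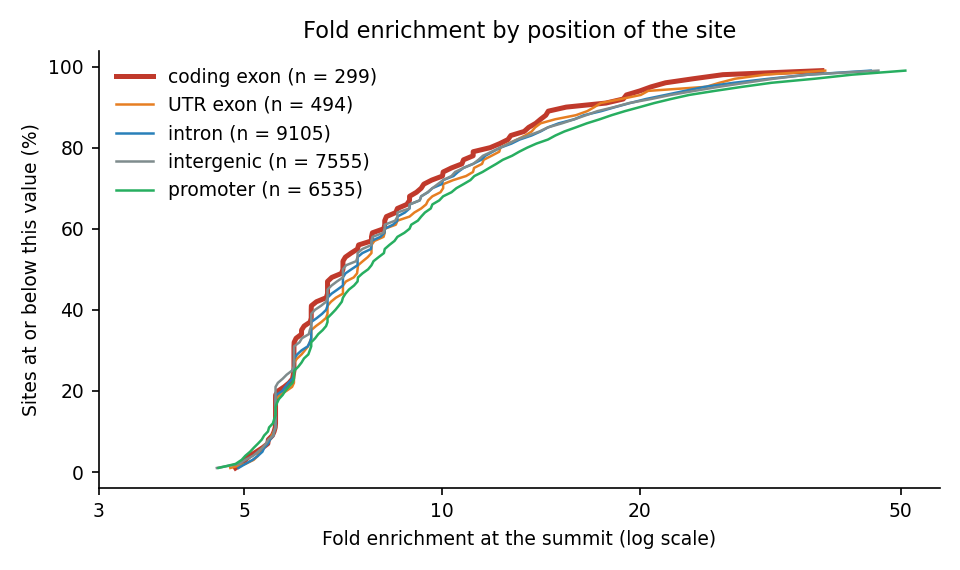
The share of sites (vertical axis, in percent) at or below each fold enrichment (horizontal axis, log scale) is drawn for the percentiles 1 to 99 of each position class. The curve of the 299 coding exon sites runs close to those of intron, untranslated exon and intergenic sites, with a median of 7.07 against 7.28 in introns.

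A local background, as MACS estimates it, followed from both values. Its floor, 1.69, was shared by 10136 sites of the list and is not read as a count of input fragments there. At these sites the fold enrichment depends on the pileup alone. The floor was reached in 150 coding exon sites, or 50.2% (44.5 to 55.8), beside 42.3% of all sites and 47.8% of intron sites. The difference from introns had p = 0.444 in a two-sided Fisher's exact test. The background exceeded 10 fragments at 2 coding exon sites. At Gm10801, a predicted gene, a pileup of 620 stood over a background of 192, which gave the lowest fold enrichment of all members, 3.22. There 78.1% of the bases around the summit were masked as repeats. Gm10801 was named after its values were seen. At Tet3, which encodes an enzyme that oxidises methylcytosine, the pileup was 519, the background 25.0 and the fold enrichment 20.0, without any masked base.

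The strongest coding exon site lay in exon 9 of Def6, the gene of a guanine nucleotide exchange factor, on chromosome 17 from 28225868 to 28226807, at 6417 bp from the nearest start. Its pileup of 303 over a background of 2.3 gave a fold enrichment of 92.0. A second coding exon site of Def6, in exon 7, reached 5.29. Def6 had no other site, and no site near its own starts. Next came Rad9a, which encodes a checkpoint clamp subunit, with an enrichment of 50.6 and a pileup of 185. Col15a1, the gene of a basement membrane collagen, followed with 45.7 (site chr4:47279778-47280549) in an exon of 66 bp, beyond which the site extended on both sides. These 3 sites stood above all other members, and only 18 of the 299 reached a fold enrichment of 20.

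Further down the order, sites in the exons of Thra reached 37.7 and 26.8. Rcor3, whose product is a corepressor that works with REST, had 27.3 in its last coding exon (summit at 192101608 on chromosome 1). Tmcc2 had 27.2 (132380996 on chromosome 1). Crmp1, a mediator of semaphorin signalling in growth cones, had 26.4 in its last coding exon (37291174 on chromosome 5). Ppfibp2, a liprin, had 25.4 (107708870 on chromosome 7). Pou3f2, which encodes a neural POU domain transcription factor and has a single exon, had 24.1 (22487293 on chromosome 4). Of these 10 strongest sites, those of Rad9a, Rcor3, Crmp1 and Pou3f2 held a DR4.

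Thra, which encodes the receptor itself, had sites in most of its larger coding exons. It lies on chromosome 11 from 98740638 to 98769006 and held 8 sites, of which 4 were in introns and 4 in coding exons, although coding bases were 5.63% of the gene. The coding exon sites had summits in exons 5, 6, 8 and 9 of the transcript that encodes TRα1. Their pileups were 25, 17, 71 and 101, and their fold enrichments 9.67, 6.69, 26.8 and 37.7. The exon 9 site had the highest fold enrichment of the gene, and the strongest of the intron sites reached 19.6. Each of these 4 exons was covered from end to end, and exon 7 was covered over 88.4% of its length by the site of exon 8. The summits lay 9.5, 16.5, 87.0 and 26.5 bp from the middle of exons 5, 6, 8 and 9. The small coding exons 2 to 4, of 53, 68 and 101 bp, were touched by no site. The largest coding segment, 366 bp in exon 10 of another Thra transcript, held no summit. It was covered over 47.0% of its length by a site with its summit in an intron. The local background was at most 1.70 at all 4 coding exon sites. The closest match to a DR4 within 100 bp of these summits had 3 mismatches, in exon 9. These mice expressed a tagged form of the protein that these exons encode, so reads from the construct and from the Thra locus cannot be told apart in the list.

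**Figure D2:**
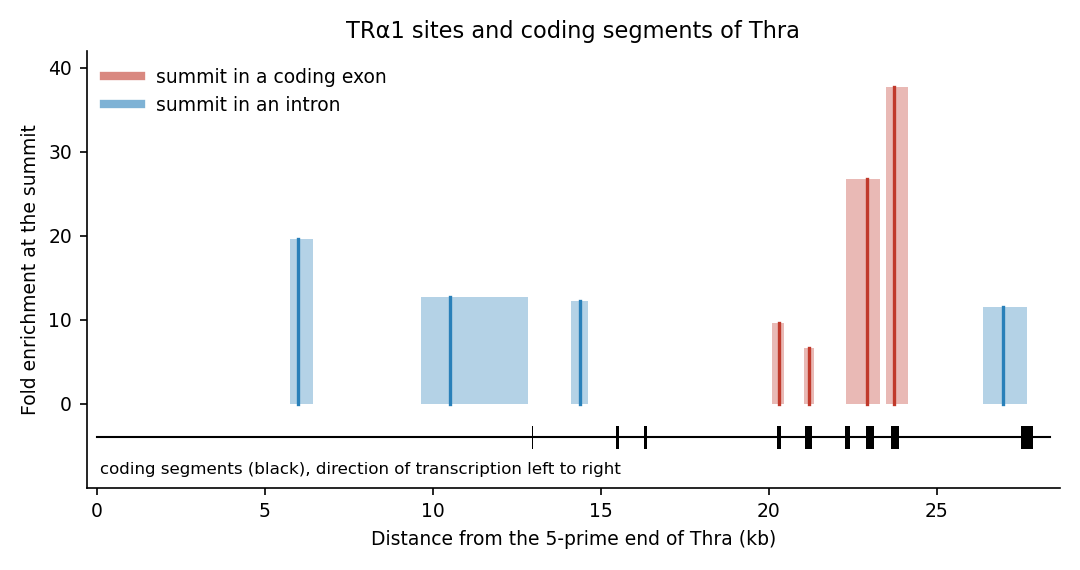
Sites of Thra are drawn as boxes from their start to their end, with height equal to the fold enrichment and a line at the summit, over the distance from the 5-prime end of the gene in kb. The 4 sites with a coding summit (red) sit on coding segments (black) between 20 and 24 kb, and 4 further sites (blue) have summits in introns.

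Mn1, which encodes a transcriptional coregulator, carried 3 sites in a first coding exon of 3718 bp, with fold enrichments of 20.8, 11.2 and 5.95. All 3 lay wholly in coding sequence, and none held a DR4. Agap2, a gene of a GTPase-activating protein of the synapse, had sites with 14.4 and 4.95. Bcr, which encodes a GTPase-activating protein of Rac, had 10.8 and 8.93, far below its highest site of 65.8 elsewhere in the gene. Epb41l1, the gene of a cytoskeletal adaptor of neurons, had 10.04 and 5.58. Dock10, a guanine nucleotide exchange factor gene, had 8.93 and 6.11, and the weaker of its sites held a DR4 with 2 mismatches. Speg had 7.42 and 5.58 among 10 sites in the gene. Of the 8 genes that the text of the study names, only Thra had a coding exon site.

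DR4 elements were more frequent at coding exon sites than in nearby sequence, and a lower share than at intron sites did not pass the adjusted test. A DR4 was present in 35 of 299 coding exon sites, or 11.7% (8.54 to 15.8), beside 13.1% of all sites. The window of equal width 5 kb to the right held one in 8 cases, or 2.68% (1.36 to 5.19). In 34 pairs only the site had a DR4 and in 7 only the window, with p = 2.53e-05 in a two-sided exact McNemar test. With at most 1 mismatch, 12 sites and none of the windows held a match, where a count of 0 in 299 allows up to 1.00% by the same 3 counts. Among 160337 windows of the same width on the middle of annotated coding segments, not matched to the sites by segment length, 2.27% held a DR4.

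Intron sites held a DR4 in 16.1% (15.4 to 16.9), sites in untranslated exons in 17.2% (14.1 to 20.8) and intergenic sites in 14.2% (13.4 to 14.97). Against these the odds ratios of coding exon sites were 0.689, 0.638 and 0.804. Two-sided Fisher's exact tests gave p = 0.0446, 0.0407 and 0.270, and after adjustment over the 3 comparisons 0.0669, 0.0669 and 0.270, so that no difference passed 0.05. The first 2 comparisons stood close to that threshold and passed it in a window of 50 bp on either side of the summit, with odds ratios of 0.604 and 0.536 and an adjusted p of 0.0359 in both exact tests. They also passed with 1 site per gene, at 0.0445 each in the exact tests. Keeping the strongest site per gene left 286 of 299 coding exon sites and 464 of 494 in untranslated exons, but 3850 of 9105 intron sites. This selection was unequal between classes, and its part in the result was not tested. Other settings moved the odds ratio against introns towards 1, to 0.836 with the peak midpoint in place of the summit, 0.869 with at most 3 mismatches and 0.932 with at most 1, at an adjusted p of 0.688, 0.390 and 1 in the exact tests. Among sites with 50 to 65% GC, an alternative chosen after seeing the data, the shares were 13.8% in coding exons and 15.1% in introns, with an odds ratio of 0.901.

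**Figure D3:**
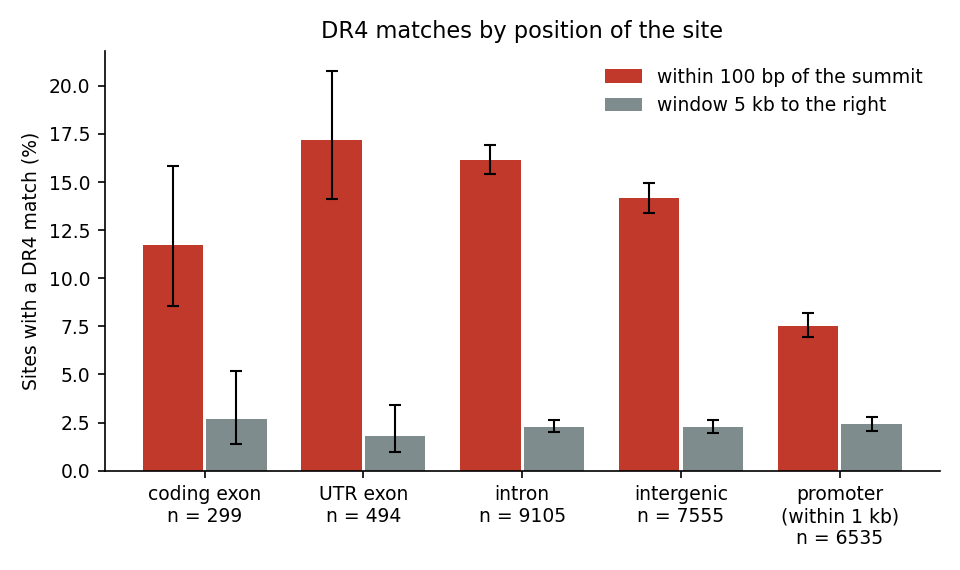
Bars give the percentage of sites with a DR4 of at most 2 mismatches within 100 bp of the summit (red) and in the window 5 kb to the right (grey), by position class. Error bars are 95% Wilson intervals. Coding exon sites reached 11.7% at the summit and 2.68% in the window.

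Of the 35 matches, 2 were complete, 10 had 1 mismatch and 23 had 2. The complete ones were in Ruvbl1, a subunit of chromatin remodelling complexes, and in Gpld1, which was singled out after its values were seen. In all, 19 matches lay wholly in coding bases, and the median distance of the match from the summit was 33.5 bp. A DR4 was present in 32 of 210 sites (15.2%, 11.01 to 20.7) in coding segments under 500 bp and in 3 of 89 (3.37%, 1.15 to 9.45) in longer segments. This split was made after the data were seen and was not tested. By fold enrichment, a DR4 was present in 10 of the 100 weakest members, 13 of the middle 99 and 12 of the 100 strongest.

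The sites whose matches are printed above spanned the range of signal. Rad9a had a pileup of 185, with the match centred 3.5 bp from the summit. At Ruvbl1 a pileup of 34 gave a fold enrichment of 13.02, in the only site of that gene and at 10.5 bp from the summit. Tns1, which encodes a focal adhesion protein, had 7.44, Irf8, a transcription factor gene of microglia and other myeloid cells, had 7.07, and Ryr1, a calcium release channel gene, had 6.64. The remaining fold enrichments were 6.11 in Gstm3, a glutathione transferase gene, 5.95 in Edrf1 and 5.95 in Cry2, which encodes a circadian repressor. All 8 of these sites lay in internal coding exons.

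In base composition the coding exon sites lay between promoter sites and the other classes. Their GC content within 100 bp of the summit had a median of 57.2%, with quartiles of 50.5 and 63.2%. The median was 64.2% at promoter sites, 48.3% at intron sites and 49.3% over the middle of all coding segments. A summit was called CpG-rich with at least 55% GC and a ratio of observed to expected CpG of at least 0.6. This held for 70 coding exon sites, or 23.4% (19.0 to 28.5), beside 19% of all sites, a list that includes promoters. It held for 143 intron sites, or 1.57% (1.33 to 1.85), for 4.25% of sites in untranslated exons, 4.32% of intergenic sites and 61.2% of promoter sites. Against introns the odds ratio was 19.2, with p = 1.85e-53 in a two-sided Fisher's exact test. Over the middle of all coding segments the share was 3.02%. These windows took each segment once, whatever its length. For GC content and CpG alike, they were not matched to the sites by segment length or distance to starts. Of the 282 members also more than 1 kb from RefSeq and noncoding transcript starts, 21.3% were CpG-rich, an alternative chosen after seeing the data.

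The CpG-rich members tended to lie in long coding segments, 45 of 70 in segments of at least 500 bp, beside 44 of the 229 other members. They were also closer to starts, with 44 of 70 within 5 kb, beside 108 of 229. Neither split was tested. Their median fold enrichment was 7.07, and that of the other members was the same to 3 significant digits. A DR4 was present in 4 of the 70 CpG-rich sites (5.71%, 2.24 to 13.8) and in 31 of the 229 others (13.5%, 9.70 to 18.6). Exon 9 of Thra, Tmcc2, Pou3f2 and Tet3 were CpG-rich and strongly enriched. Of these, the Tmcc2 summit lay 133 bp from the start of a noncoding transcript. The Pou3f2 summit lay 1073 bp from a protein-coding start, just past the limit. Chst2, a sulfotransferase gene with a single coding exon, was CpG-rich with a fold enrichment of 19.0, and it also stood just outside the limit of 1 kb.

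**Figure D4:**
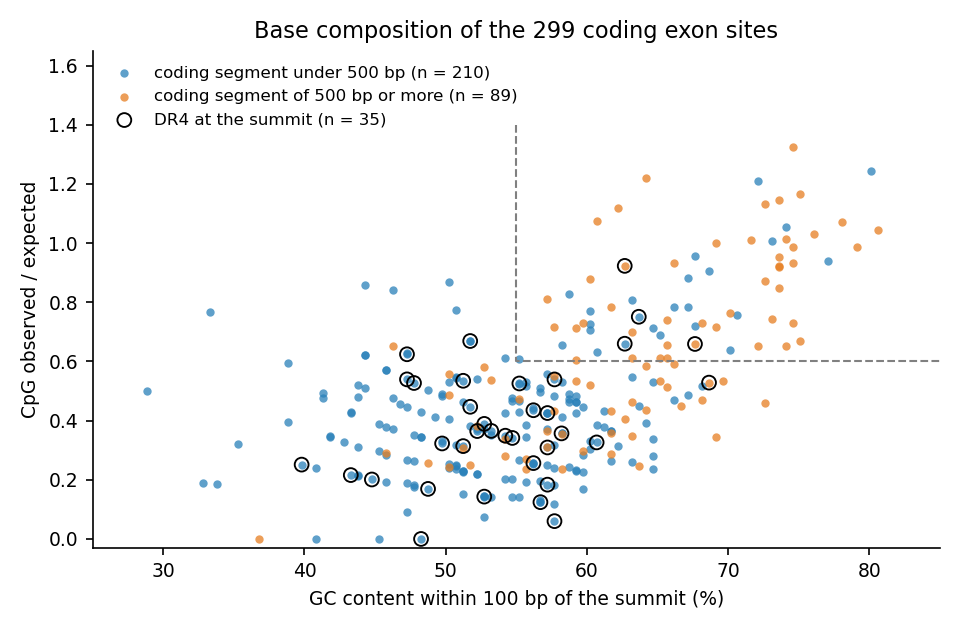
Each point is 1 of the coding exon sites, placed by the GC content within 100 bp of the summit (horizontal axis, in percent) and by the ratio of observed to expected CpG (vertical axis). Orange points lie in coding segments of at least 500 bp, rings mark the 35 sites with a DR4, and the dashed lines enclose the 70 CpG-rich sites.

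Motifs of other factors were searched without mismatch on both strands within 100 bp of the summit, and 5 of 12 differed from intron sites in two-sided Fisher's exact tests with adjusted p under 0.05. The GC box GGGCGG, bound by Sp factors, was present in 15.1% (11.4 to 19.5) of coding exon sites and 6.23% of intron sites, beside 18.2% of all sites, with an adjusted p of 1.41e-06. The E-box CAGCTG, bound by basic helix-loop-helix factors, was present in 21.1% (16.8 to 26.0) against 13.5%, beside 12.8% of all sites, with an adjusted p of 0.00253. The letters CAGNGGGCG, part of the CTCF motif, were present in 8 sites, 2.68% (1.36 to 5.19) against 0.626%, beside 1.78% of all sites, with an adjusted p of 0.00397. The EGR motif GCGNGGGCG was present in only 5 sites, 1.67% (0.716 to 3.85) against 0.494%, beside 2.84% of all sites, with an adjusted p of 0.0497. It contains GGGCG, as do the GC box and the CTCF letters, so that these motifs can share bases. Beyond 5 kb from starts the E-box lost its call (odds ratio 1.39, adjusted p 0.341 in the exact test), and with 1 site per gene the EGR motif did (2.72, 0.105).

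AP-1, the motif TGANTCA of Fos and Jun dimers, went the other way. It was present in 8.36% (5.73 to 12.1) of coding exon sites and 13.8% of intron sites, beside 11.5% of all sites, with an adjusted p of 0.0178 in the Fisher's exact test. Beyond 5 kb from starts this call was lost (odds ratio 0.730, adjusted p 0.485). With the background at its floor, AP-1, EGR and the CTCF letters lost their calls, at an adjusted p of 0.119, 0.129 and 0.0826 in the exact tests. Over the middle of all coding segments AP-1 was present in 4.80%. There the GC box was present in 4.48%, the E-box CAGCTG in 14.8%, the CTCF letters in 0.461% and EGR in 0.215%. The AGGTCA half-site, which is also part of every complete DR4, was present in 18.7% of coding exon sites and 19.9% of intron sites. Among sites with 50 to 65% GC, chosen after seeing the data, none of the 12 motifs passed the adjusted threshold, and only AP-1 had an unadjusted p under 0.05 (0.0350, odds ratio 0.549). GC content differed between coding exon and intron sites, and its part in the motif differences was not tested beyond this restriction.

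**Figure D5:**
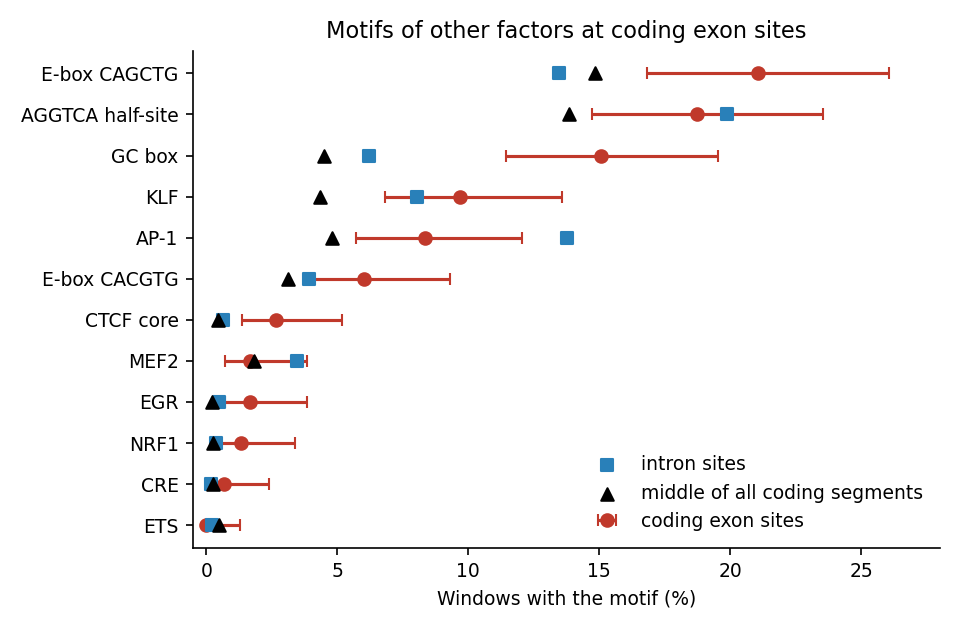
The percentage of windows of 100 bp on either side of the summit with each of 12 motifs is shown for coding exon sites (red, with 95% Wilson intervals), intron sites (blue squares) and the middle of all coding segments (black triangles). The GC box and the E-box CAGCTG are more frequent at coding exon sites than at intron sites, and AP-1 is less frequent.

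Most genes with a coding exon site had further sites. The sites in the whole gene, the coding exon site included, had a median of 3, and 70 of the 299 members were alone in their gene. Another site lay within 5 kb of 119 members. A promoter site, within 1 kb of a start of the gene, was present in 156 of the 286 genes, or 54.5%, compared with 27.4% of all protein-coding genes and 66.4% of the 7101 genes with any site in their body. The site in the body of those 7101 genes could itself be the promoter site, so the 54.5 and 66.4% are not alike. The genes were also long, with a median of 42.1 kb against 17.4 kb for all protein-coding genes.

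Gene groups were described by the count of their members with a coding exon site, beside 1.31% of all protein-coding genes with one and 32.4% with a site anywhere in the gene. Of 405 genes in 14 lists written for this tissue and receptor, 17 or 4.2% had one. No list was tested, and gene length was not taken into account. The 286 genes with a coding exon site were among the 7101 genes with any site in their body. Most lists exceeded the 32.4% of all genes with any site, while the glial, endothelial and Hox lists were lower. Any site was found in 88.1% of voltage-gated channel, 83.3% of postsynaptic scaffold, 74% of chromatin enzyme and 61.2% of nuclear receptor genes. A share above 1.31% in such lists therefore shows no preference for coding exons. Among 30 genes of striatal projection neurons, the main GABAergic cells of the striatum, 2 (6.67%) had a coding exon site, and 25 (83.3%) had a site somewhere in the gene, beside 1.31% and 32.4% of all genes. These were Rgs9, whose product ends dopamine receptor signalling through G proteins, with a fold enrichment of 7.81, and Meis2, a homeobox gene, with 7.03 and a DR4 of 2 mismatches. None of the 12 genes each that mark astrocytes, oligodendrocytes, microglia and endothelial cells had a coding exon site, a count from which nothing can be read at a background of 1.31%. A site anywhere in the gene was found in 1, 1, 1 and 3 of the 12 markers (8.33, 8.33, 8.33 and 25%), beside 32.4% of all genes.

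Synaptic and channel genes had a few members each. Of 30 postsynaptic scaffold genes, 3 (10%) had a coding exon site, beside 1.31% of all genes. Besides Agap2 these were Camk2a, the kinase of synaptic plasticity, with 7.07 and Shank3, a master scaffold of excitatory synapses, with 6.69 in an exon segment of 2257 bp. Of 42 voltage-gated channel genes, 3 (7.14%) had one, namely the calcium channel genes Cacna1b with 5.95 and Cacna1d with 5.92 and the sodium channel subunit gene Scn4b with 5.58. Of 39 glutamate and GABA receptor subunit genes, only Grin2d (2.56%) had one, with 5.61 in its last coding exon. Apart from those of Agap2, these sites had pileups of 14 to 18, against a median of 20 over all members.

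Among regulators of transcription, 4 of 50 genes of chromatin modifying enzymes (8%) had a coding exon site, beside 1.31% of all genes. They were Tet3, described above, Chd4, a nucleosome remodeller gene, with 12.5, and the histone methyltransferase genes Kmt2a and Ehmt2 with 5.58 each. A value of 5.58 lies below the lower quartile of all members, 5.95. Ehmt2 also held a DR4 of 1 mismatch, beside its coding segment. Of 49 nuclear receptor genes, Thra and Pgr, the progesterone receptor gene, were the 2 (4.08%) with a coding exon site. The site of Pgr reached 5.77, also below that quartile, and held a DR4 of 2 mismatches in coding bases, centred 3.5 bp from the summit. None of 28 genes of receptor corepressors and coactivators had one. Of 28 immediate early genes only Egr4 did, with 9.99 in its last coding exon, and of 33 brain genes known to respond to thyroid hormone only Sema7a, a semaphorin gene, with 8.55. No Hox gene of 39 and no olfactory receptor gene of 1134 had a coding exon site, and 4 of 394 zinc finger genes named Zfp did. With a background of 1.31%, the counts of 0 in 28 and 39 genes and of 1 in 28 and 33 genes cannot be told from it. For the 1134 olfactory receptor genes and the 394 Zfp genes, the coding sequence more than 1 kb from starts was not measured. Because the rule needs such sequence, their counts say nothing about binding in these groups.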

How the data were processed

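TRα1 ChIP-seq of mouse striatum comprised 2 ChIP libraries and 1 input library, grouped by their titles. Per the labels, the authors aligned reads with Bowtie2 2.3.2.2 and called peaks with MACS2 2.1.1.20160309.0 on GRCm38. They kept peaks with a score of at least 60. Whether the ChIP libraries were pooled was not stated, and depth per library was not analysed here. The deposited signal column is the MACS pileup. The deposited fold enrichment is a ratio of pileup to local background, and the deposited −log10 q value and score belong to the summit. The p-value column was not used.

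Summits were classified in the order promoter (within 1 kb of a protein-coding transcript start), coding exon, untranslated exon, intron and intergenic, with GENCODE vM21. To obtain the local background, 1 was added to the pileup, the sum was divided by the fold enrichment and 1 was subtracted, with a floor tolerance of 0.001. Sequences came from the RefSeq assembly of GRCm38. DR4 was searched with at most 2 mismatches in 12 bases, and 12 motifs without mismatch. Shares were compared by two-sided Fisher's exact tests and an exact McNemar test, with Benjamini-Hochberg adjustment and a threshold of 0.05, in Python 3.11.15 with scipy 1.17.1, numpy 2.4.6, pandas 2.3.3 and matplotlib 3.10.9. The sites are not replicates, and the intervals and p-values cover counting error only.

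Named were the genes of the 10 highest fold enrichments, up to 8 genes with the most coding exon sites, up to 8 with a DR4 of at most 1 mismatch, genes the study names, and up to 4 genes per list. The members, gene lists and tests were chosen with earlier results of these data known. Of the list genes, 1 symbol was not matched. Alternatives were other scores, distances, positions, annotations, DR4 windows and mismatch limits. The search and tests were checked on simulated data, where 200 of 200 planted DR4 were found. Without an effect, 5 of 100 simulated comparisons of DR4 between coding exon and intron sites, over 23988 sites, were called.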

Additional observations from a re-analysis of the deposited data

How the results depend on the processing

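The alternatives gave 120 values, of which 87 changed neither direction nor call, or as a count moved by less than 1.5 times. A score of at least 200 left 81 coding exon sites, and a distance of more than 5 kb from starts left 147. The number of motifs past the threshold, 5 as reported, was 0 at a score of at least 200 (81 sites, with odds ratios of 0.430 for AP-1, 1.398 for the E-box, 2.11 for the GC box, 2.25 for EGR and 5.77 for the CTCF letters), 3 beyond 5 kb, 2 with the background at its floor and 0 with 50 to 65% GC, where the odds ratio of EGR turned to 0.661. The number of motifs past the threshold was 6 with the peak midpoint, 7 with basic transcripts only and 4 with 1 site per gene. The odds ratio for a background at its floor turned from 1.10 to 0.943 at a score of at least 200 and to 0.975 with 1 site per gene, and it was past the threshold in no setting. For DR4, coding exon sites differed from intron sites and from untranslated exon sites with 1 site per gene (odds ratios 0.655 and 0.619) and with 50 bp on either side of the summit (0.604 and 0.536). Keeping the strongest site per gene left 3850 intron sites and 286 coding exon sites, an unequal selection between these classes. At most 1 mismatch turned the comparison with intergenic sites to 1.31, with an adjusted p of 0.601 in the exact test. With 1 site per gene the odds ratios of reaching the median fold enrichment were 0.515 against introns and 0.571 against intergenic sites at the median of the sites kept, and 0.515 and 0.578 at the median of the whole list, a setting chosen after seeing the data. The cause of the other changes was not tested, except that a higher score or a longer distance leaves fewer sites.

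No paired analysis was possible because the list holds no value of a single library, and leaving out a library could not be done for the same reason. Restricting to sites at the floor gave no value for the floor comparison itself. The number of coding exon sites limits the DR4 comparisons, as the interval of 8.54 to 15.8% shows.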
